A study of Mus musculus with 17 samples.

Results

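The clustered protocadherin genes are 3 neighbouring gene clusters, alpha, beta and gamma, and every gene whose symbol names it as a numbered member of one of them was taken. This gave 58 genes of the 56953 in the table, with 14 in the alpha, 22 in the beta and 22 in the gamma cluster. Clustered protocadherins are adhesion proteins of the neuronal surface. Each neuron switches on its own mixture of them by a largely random choice among promoters, which involves DNA methylation and looping by CTCF and cohesin, and the mixture lets branches of a neuron recognise and avoid each other. In the alpha and gamma clusters each gene has its own first exon, joined by splicing to constant exons that the whole cluster shares, whereas each beta gene is a single exon that codes for a whole protein. The C-type genes at the ends of the alpha and gamma clusters (Pcdhac1, Pcdhac2, Pcdhgc3, Pcdhgc4 and Pcdhgc5) are regulated apart from the others and are used by most neurons rather than by random choice.

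RNA from prefrontal cortex at 8 months of age was sequenced in 17 libraries, 5 of WT, 6 of hTau and 6 of CgA-KO/hTau mice, all on the B6C3F1/J background. The hTau mice are the PS19 line, which carries 1 copy of a mutant human Tau transgene under the Prnp promoter, and the CgA-KO/hTau mice carry that transgene and lack Chga, the gene of chromogranin A, in the whole body. The Chga deletion was made in a mixed 129 and C57BL/6 background and crossed into the others, so the groups may also differ in the strain origin of other loci. The labels do not say beyond the titles that each library is a separate animal, and the p-values measure the spread between these libraries.

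Chga had 0 counts in each CgA-KO/hTau library, whereas its normalised level (CPM, TMM-scaled counts by library size) averaged 163 ± 11.9 in WT (SD, n = 5) and 168 ± 6.68 in hTau (SD, n = 6). The libraries held 8838334 to 227651681 counts, and about 3 deposited counts stood for 1 sequenced fragment. Protocadherin counts were 0.0756% to 0.129% of each library. The Y-linked gene Ddx3y lay at 49.8 to 76.8 CPM in the libraries numbered 1 to 3, whatever their genotype, and no higher than 0.0582 CPM in those numbered 4 and up. The study reports that each genotype held males and females, in the same numbers as these sets of libraries. The labels give no sex for single libraries. These sets of libraries coincide with low and high replicate numbers, so sex cannot be told apart from anything else that goes with the number. Transcripts of the mitochondrial genome were 13.8% to 18.2% of all counts in CgA-KO/hTau replicates 1 to 3, 3.84% to 10.9% in CgA-KO/hTau replicates 4 to 6 and 2.56% to 7.94% in WT and hTau. The hTau replicates 4 to 6, and CgA-KO/hTau replicates 1 and 3, were nearly identical, with median absolute log2 ratios of 0.0549 to 0.0670 and 0.0920 against 0.126 to 0.482 for other pairs of one genotype, but differed by more than counting noise and were kept as separate samples. A set of 19 striatum markers summed to 1220 to 3890 CPM in WT, 410.2 to 548 CPM in hTau and 333 to 2622 CPM in CgA-KO/hTau, with Lhx8 and Isl1 at 0 in every hTau library.

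The genes lie on chromosome 18 of GRCm38, on the plus strand, with the alpha cluster from 36930184 to 37187661, the beta cluster from 37264938 to 37524479 and the gamma cluster from 37661793 to 37841873 (GENCODE M21). Exon bases that a gene shared with another member made up a median of 53.4% in the alpha cluster, 0% in the beta cluster and 44.7% in the gamma cluster. For alpha and gamma genes the split of counts between members therefore rests partly on how the counting program shared out reads from the constant exons, and their values are uncertain to that extent. Beta genes overlap little, and of the stretches of 100 bases in their exons a median of 0.207% also occurred in another member. The pair Pcdhb21 and Pcdhb22 shared 356 such stretches, and reads could be split between them.

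Per kb of exon, the most abundant members were gamma genes, and the beta cluster had no member far above the rest. Mean levels over all libraries, as CPM per kb, were 0.230 to 8.65 (median 1.19) in the alpha cluster, 0.0662 to 4.95 (median 1.96) in the beta cluster and 1.21 to 32.7 (median 3.48) in the gamma cluster. In the alpha cluster the C-type gene Pcdhac2 was highest at 8.65 CPM per kb, ahead of Pcdha12 at 2.37 and Pcdha11 at 1.99 CPM per kb. The highest beta genes were Pcdhb9 at 4.95, Pcdhb17 at 4.07 and Pcdhb20 at 4.07 CPM per kb, close to each other. The highest gamma genes by mean were Pcdhgb4 at 32.7, Pcdhga2 at 25 and Pcdhgc3 at 11.1 CPM per kb. By the median over libraries Pcdhgb4 led at 33.2, followed by Pcdhgc3 at 10.2, Pcdhgc5 at 8.15 and Pcdhga2 at 6.11 CPM per kb, since a few libraries carried the mean of Pcdhga2. At the low end were Pcdhb1, at 0.0662 CPM per kb, and Pcdha8, at 0.230 CPM per kb. The 0 counts of Pcdhb1 in 2 libraries and of Pcdha8 in 1 library mean only that they were not detectable at that depth.

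**Figure D1:**
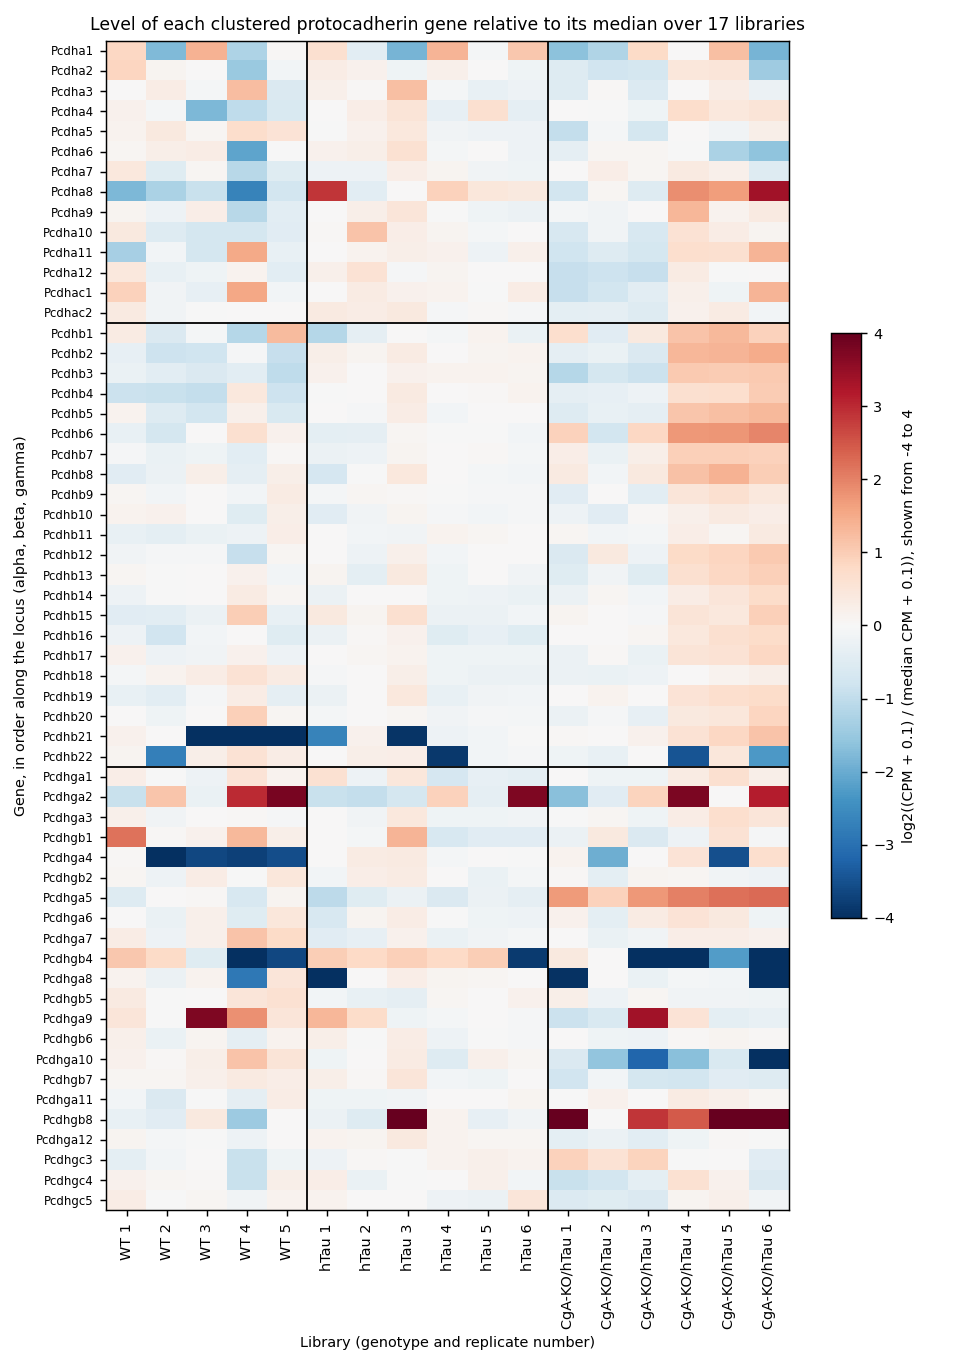
Level of each of the 58 genes (vertical axis, in their order along the locus) in each of the 17 libraries (horizontal axis), as the log2 ratio to that gene's median over all libraries with 0.1 CPM added, with colours ending at -4 and 4. Most beta genes are red together in CgA-KO/hTau replicates 4 to 6, Pcdhga5 is red in all 6 CgA-KO/hTau libraries, and Pcdhgb4, Pcdhga2, Pcdhga9 and Pcdhgb8 change by more than 5-fold between single libraries.

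A single gene took a large share of the gamma counts, and which gene that was changed from library to library. The highest gamma gene held 35.2% to 50.8% of the cluster's counts, at 193 to 412 CPM. It was Pcdhgb4 in WT replicates 1 and 2, hTau replicates 1 to 5 and CgA-KO/hTau replicates 1 and 2, and Pcdhga2 in WT replicates 4 and 5, hTau replicate 6 and CgA-KO/hTau replicates 4 and 6. Pcdhga9 was highest in WT replicate 3 and CgA-KO/hTau replicate 3, and Pcdhgb8 in CgA-KO/hTau replicate 5. All 4 are gamma genes of the A and B types, and Pcdhgb8 is annotated as a polymorphic pseudogene. In GENCODE M21 these 4 and Pcdhgb1 end at 37841870, whereas every other gamma gene ends at 37841873. The part of this annotated end in the assignment of reads was not tested.

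Where one of these genes was high the others were mostly low. Pcdhgb4 was at 412, 329, 139, 4.45 and 15.3 CPM in WT replicates 1 to 5, at 13.5 to 383 CPM (median 356) in hTau, and at 255, 193, 5.33, 5.17, 40.7 and 10.4 CPM in CgA-KO/hTau replicates 1 to 6. Pcdhga2 was at 15.3, 62.1, 23.8, 227 and 399.9 CPM in WT, at 14.8 to 385 CPM (median 19.9) in hTau, and at 9.02, 20.7, 53.2, 389, 28.7 and 255 CPM in CgA-KO/hTau. Pcdhga9 was at 319 CPM in WT replicate 3 and 244 CPM in CgA-KO/hTau replicate 3, and at 13.2 to 84.5 CPM in all other libraries. The genotypes overlap for each of these genes, since libraries of the same genotype lie at both ends.

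The 18 other gamma genes kept nearly the same sum. Without Pcdhgb4, Pcdhga2, Pcdhga9 and Pcdhgb8 the gamma sum averaged 342 ± 39.0 CPM in the 5 WT libraries (mean ± SD), 337 ± 29.7 CPM in the 6 hTau libraries and 339 ± 23.3 CPM in the 6 CgA-KO/hTau libraries. The sum of those 4, which were chosen after their values were seen, was 425 ± 65.9, 426 ± 24.6 and 344 ± 83.7 CPM. Between the near-identical libraries the highest gene also changed, from Pcdhgb4 in hTau replicates 4 and 5 to Pcdhga2 in hTau replicate 6, and from Pcdhgb4 in CgA-KO/hTau replicate 1 to Pcdhga9 in replicate 3. The part of the counting of shared constant exons in this pattern was not tested.

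**Figure D2:**
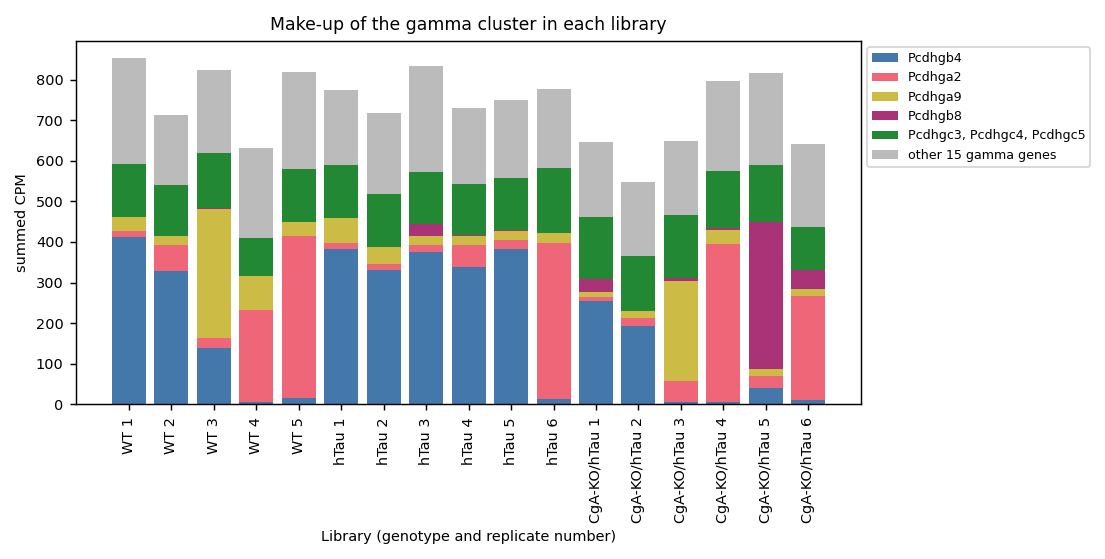
Make-up of the gamma cluster in each library (horizontal axis) as stacked bars of summed CPM (vertical axis, from 0). Blue, pink, yellow and purple are Pcdhgb4, Pcdhga2, Pcdhga9 and Pcdhgb8, green the 3 C-type gamma genes and grey the other 15. One of the first 4 makes up 35.2% to 50.8% of each bar, and the green part lies at 92.8 to 159 CPM.

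Large departures of single libraries were concentrated in the gamma genes. Among genes with a median of at least 1 CPM, 7 of 22 gamma genes (31.8%), 2 of 21 beta genes (9.52%) and 0 of 13 alpha genes had a library more than 5-fold away from the gene's own median, against 859 of 15271 over all genes (5.63%). Beside the 4 genes above these were Pcdhga4, Pcdhga8, Pcdhga10, Pcdhb21 and Pcdhb22, all with low libraries. Pcdhga4 was at 12.4 CPM in WT replicate 1 and at 0.492 to 0.917 CPM in WT replicates 2 to 5, at 11.2 to 15.3 CPM (median 11.9) in hTau, and at 13.3, 3.01, 12.1, 17.4, 0.940 and 19.1 CPM in CgA-KO/hTau. It was thus low in most WT libraries, but WT replicate 1 lay within the range of the hTau libraries. Of the 4723 stretches of Pcdhga4 exons, 2959 also occur in Pcdhgb1, and reads could be split between them. Pcdhga4 and Pcdhgb1 as a pair summed to 67.3, 12.9, 14.4, 30.5 and 15.1 CPM in WT replicates 1 to 5. In hTau the pair lay at 18.9 to 46.5 CPM, so only WT replicates 2, 3 and 5 were below that range. The part of read splitting in the low Pcdhga4 values was not tested. Pcdhb21 had 0 counts in WT replicates 3 to 5 and lay at 0.206 to 5.12 CPM (median 4.08) in hTau and 4.64 to 10.2 CPM in CgA-KO/hTau. Pcdhb22, whose annotated exons overlap those of Pcdhb21 by 455 bases, was not low there. Pcdhb21 and Pcdhb22 as a pair summed to 14.3, 18 and 15 CPM in WT replicates 3 to 5, within the 4.70 to 19.4 CPM of hTau. The pair sum was lowest in WT replicate 2, at 6.32 CPM, hTau replicate 4, at 4.70 CPM, and CgA-KO/hTau replicate 4, at 7.85 CPM.

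The spread within genotypes was also wide for the alpha genes. Among genes with a median of at least 1 CPM, the median coefficient of variation was 43.7% in WT, 18.6% in hTau and 38.6% in CgA-KO/hTau for 13 alpha genes, 21.9%, 11.2% and 32.8% for 21 beta genes and 24.8%, 18.6% and 26.9% for 22 gamma genes, against 19.9%, 9.88% and 21.6% for all 15271 such genes. These are descriptions with no test.

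Summed over each cluster, the beta genes were highest in CgA-KO/hTau, and the alpha and gamma sums overlapped between genotypes. The alpha sum was 137 ± 19.7 CPM in WT, 148 ± 16 CPM in hTau and 130.0 ± 34.9 CPM in CgA-KO/hTau (SD, n = 5, 6 and 6). The beta sum was 179 ± 22.8, 185 ± 16.1 and 245 ± 80.6 CPM, and the gamma sum 767 ± 93.4, 763 ± 41.4 and 683 ± 104 CPM. The large SD of the beta sum in CgA-KO/hTau came from its libraries falling apart by replicate number, with 168 to 178 CPM in replicates 1 to 3, inside the range of the other genotypes, and 290.2 to 337 CPM in replicates 4 to 6. The alpha sum fell apart the same way, at 92.8 to 105 CPM in replicates 1 to 3 and 155 to 170.03 CPM in replicates 4 to 6.

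Since both sums were lower in the same libraries, their ratio varied less. The beta sum was 1.13 to 1.46 times the alpha sum in WT (mean 1.31 ± 0.134), 1.14 to 1.37 times in hTau (1.26 ± 0.0975) and 1.69 to 2.17 times in CgA-KO/hTau (1.87 ± 0.197). The 6 CgA-KO/hTau libraries all lay above the other 11. This ratio was looked at after the data had been seen and was not tested. In bulk RNA, fewer cells of a type and less RNA per cell cannot be told apart.

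**Figure D3:**
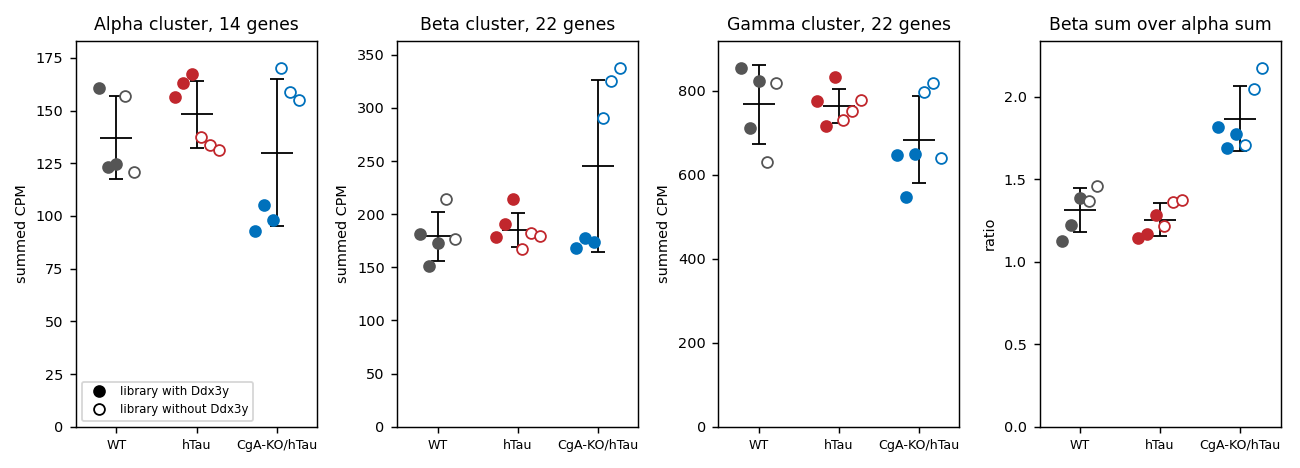
Summed CPM of the alpha, beta and gamma clusters and the ratio of the beta to the alpha sum (vertical axes, from 0) in WT, hTau and CgA-KO/hTau. Points are libraries, filled with Ddx3y and open without, and bars are the mean and SD. The beta sums of the open CgA-KO/hTau points lie at 290.2 to 337 CPM above all others, and the ratio lies at 1.69 to 2.17 in CgA-KO/hTau and at no more than 1.46 elsewhere.

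The comparison of CgA-KO/hTau with hTau shows what went with the loss of Chga in mice that carry the transgene. Pcdhga5, Pcdhb6, Pcdhb7 and Pcdhb8 rose and Pcdhgb7 and Pcdhga12 fell at an adjusted p under 0.05 (edgeR's quasi-likelihood test on all 17 libraries, Benjamini-Hochberg adjustment over 23062 genes). These 4 higher members are 6.90% of the 58, where 5.5% of all genes tested were higher, and the 2 lower ones 3.45%, where 4.22% of all genes were lower, so the counts of called genes in this fit were near the background. With the striatum marker score (the mean of the markers' log2(CPM + 1), centred over the libraries) as a covariate, 15 were higher and 1 lower. Over all genes that fit gave 4.7% higher and 3.47% lower. By cluster, 3 of 22 beta genes rose and none fell, 1 of 22 gamma genes rose and 2 fell, and no alpha gene was called. The log2 fold change was positive for 21 of 22 beta genes with a median of 0.37, against a median of -0.27 for the alpha genes, -0.03 for the gamma genes and 0.03 for all genes.

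Pcdhga5, a gamma gene of the A type, had the clearest difference. It was at 2.37, 3.46, 3.56, 2.17 and 3.77 CPM in WT, at 1.64 to 2.95 CPM (median 2.57) in hTau, and at 11.5, 6.67, 11.7, 14.2, 16.4 and 17 CPM in CgA-KO/hTau. Every CgA-KO/hTau library lay above every library of the other genotypes, and CgA-KO/hTau replicate 2 was the lowest of the 6. The log2 fold change was 2.37 (SE 0.22, adjusted p = 6.28e-06, edgeR) against hTau and 2.04 (SE 0.23, adjusted p = 7.93e-05, edgeR) against WT. Both calls held in each alternative analysis, and without any 1 library the log2 fold changes were 2.28 to 2.51 and 1.95 to 2.18.

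Pcdhgb7, a gamma gene of the B type, was lower in CgA-KO/hTau. It was at 17.6, 17.9, 19.5, 21.6 and 20.3 CPM in WT, at 14.8 to 23.7 CPM (median 17) in hTau, and at 9.86, 15.7, 10.3, 10.1, 12.1 and 11.8 CPM in CgA-KO/hTau. CgA-KO/hTau did not overlap with WT, and only its replicate 2 lay within the hTau range. Pcdhgb7 fell by 0.62 (SE 0.13, adjusted p = 0.00978, edgeR) on the log2 scale against hTau and by 0.73 (SE 0.14, adjusted p = 0.00587, edgeR) against WT. The calls held without any 1 library. The call against hTau was lost when the near-identical libraries were averaged (adjusted p = 0.0601, edgeR) and in the libraries without Ddx3y alone, at -0.49 (adjusted p = 0.171, edgeR), and the call against WT in the libraries with Ddx3y alone (adjusted p = 0.0502, edgeR).

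The beta genes Pcdhb6, Pcdhb7 and Pcdhb8 are neighbours within the beta cluster and rose together. Pcdhb6 was at 3.67, 2.71, 4.50, 7.07 and 5.14 CPM in WT, at 3.39 to 4.77 CPM (median 4.32) in hTau, and at 8.60, 2.65, 8.11, 15.1, 15.7 and 17.7 CPM in CgA-KO/hTau. Replicate 2 of CgA-KO/hTau was below every hTau library and the other 5 above. Its log2 fold change against hTau was 1.46 (SE 0.33, adjusted p = 0.0135, edgeR), a call that held without any 1 library at 1.29 to 1.66. It was lost when the near-identical libraries were averaged (adjusted p = 0.0908, edgeR) and in the libraries with Ddx3y alone, at 0.75 (adjusted p = 0.173, edgeR).

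Pcdhb7 was at 8.43 to 10.6 CPM (median 9.66) in hTau and at 11.9, 8.27, 11.7, 19.1, 19.2 and 18.7 CPM in CgA-KO/hTau, with replicate 2 below every hTau library (log2 fold change 0.64, SE 0.18, adjusted p = 0.0326, edgeR). Pcdhb8 was at 3.52 to 7.52 CPM (median 5.47) in hTau and at 7.31, 5.20, 7.45, 12.8, 14.9 and 11.4 CPM in CgA-KO/hTau, with replicates 1 to 3 inside the hTau range (log2 fold change 0.84, SE 0.24, adjusted p = 0.0341, edgeR). For both genes the call ended without hTau replicate 1, 2, 4, 5 or 6 or without CgA-KO/hTau replicate 5 or 6, and the highest adjusted p was 0.0687 for Pcdhb7 and 0.0666 for Pcdhb8. The log2 fold changes stayed between 0.55 and 0.76 and between 0.68 and 0.97.

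Pcdhga12 was at 26.8 to 33.4 CPM (median 27.9) in hTau and at 19.4, 21.5, 18.9, 22.7, 26.4 and 25.4 CPM in CgA-KO/hTau, with no overlap. It fell by 0.35 on the log2 scale (SE 0.098, adjusted p = 0.0322, edgeR). The call ended without any 1 of the hTau libraries or of CgA-KO/hTau replicates 1 to 3, at an adjusted p of up to 0.0750. The libraries of CgA-KO/hTau and hTau did not overlap for 3 of the 58 members, Pcdhga5 higher and Pcdhga10 and Pcdhga12 lower, while 6.63% of all genes did not overlap. The largest change of a gamma gene, a log2 fold change of 3.72 for Pcdhgb8 (adjusted p = 0.0646, edgeR), and that of a beta gene, 1.58 for Pcdhb1 (adjusted p = 0.105, edgeR), were not called. Pcdha8 had the largest change in the alpha cluster, a log2 fold change of 0.56 that was not called. Pcdhgb4 had a log2 fold change of -1.84 (adjusted p = 0.268, edgeR).

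**Figure D4:**
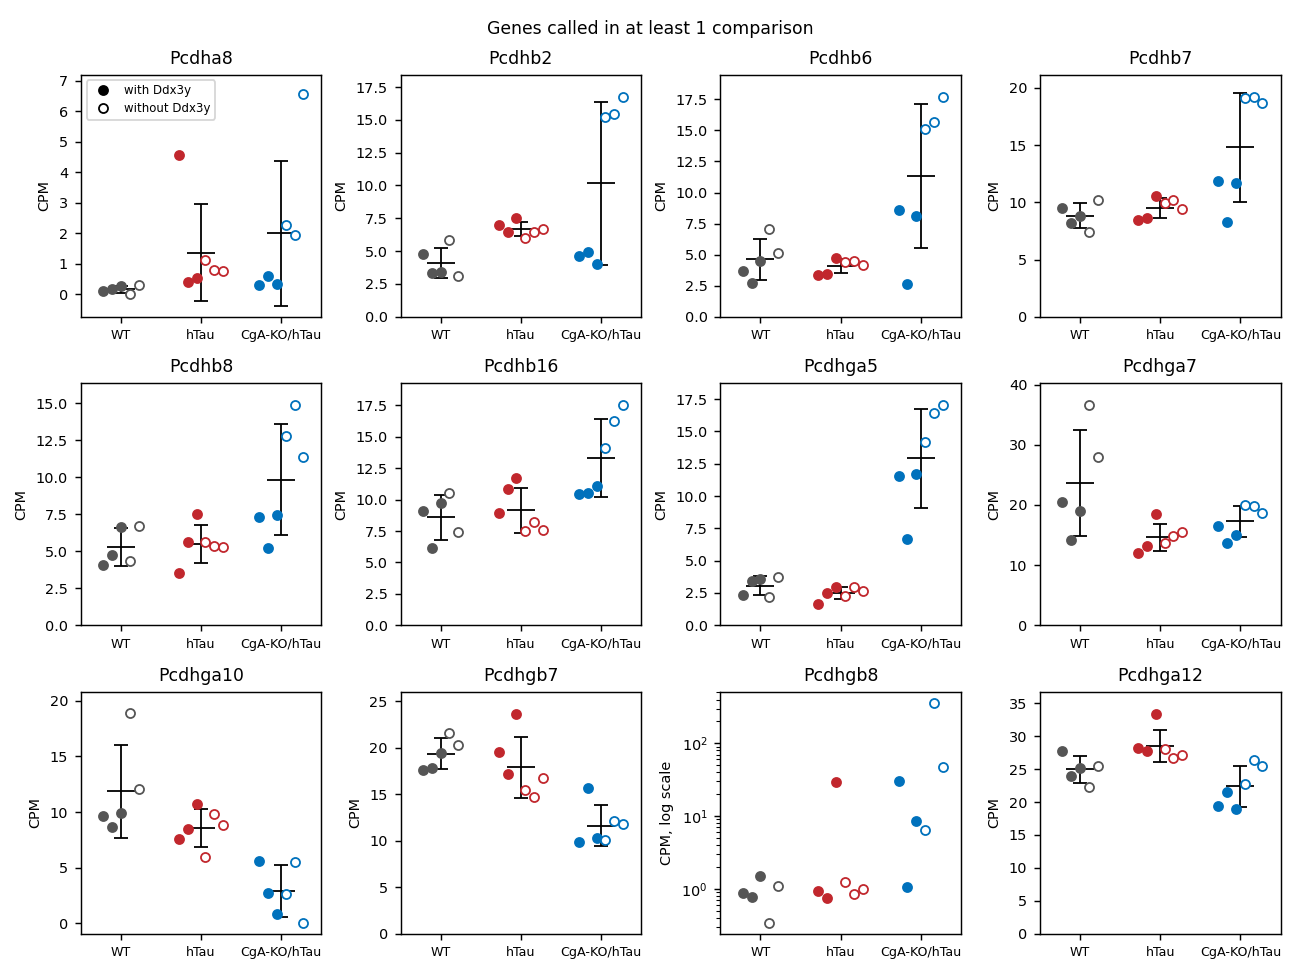
CPM (vertical axes, from 0 except for Pcdha8 and Pcdhga10, which start just below 0, and for the log axis of Pcdhgb8) of the 12 genes with an adjusted p under 0.05 in at least 1 comparison, in WT, hTau and CgA-KO/hTau. Points are libraries, filled with Ddx3y and open without, and bars are the mean and SD (none on the log axis). Pcdhga5 at 6.67 to 17 CPM lies in CgA-KO/hTau above every other library, while for Pcdhb2 the CgA-KO/hTau libraries with Ddx3y lie at 3.99 to 4.94 CPM and those without at 15.2 to 16.8 CPM.

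CgA-KO/hTau was next compared with WT, a difference in which the transgene and the deletion cannot be told apart. Here 8 members rose (13.8% of the 58, against 3.56% of all genes) and 2 fell (3.45%, against 2.89% of all genes). The beta cluster again moved one way, with 5 of 22 genes higher, none lower, and 20 of 22 log2 fold changes positive (median 0.59, against -0.22 in the alpha cluster, -0.20 in the gamma cluster and 0.01 over all genes). Both comparisons use the same CgA-KO/hTau libraries. The balance of higher and lower members turned with the libraries and terms in the fit. With the striatum score as a covariate 2 members were higher and 9 lower (9.95% and 11.9% of all genes), and in the libraries with Ddx3y alone 3 were higher and 7 lower (9.16% and 11.5% of all genes). The striatum score lay at 0.52 to 2.27 in WT and at -1.30 to 1.74 in CgA-KO/hTau. The libraries did not overlap for 3 members, Pcdhga5 higher and Pcdhga10 and Pcdhgb7 lower, against 3.6% of all genes.

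The beta genes that rose against WT were Pcdhb2, Pcdhb6, Pcdhb7, Pcdhb8 and Pcdhb16. Pcdhb2 was at 4.77, 3.37, 3.43, 5.82 and 3.11 CPM in WT and at 4.60, 4.94, 3.99, 15.2, 15.4 and 16.8 CPM in CgA-KO/hTau, with replicates 1 to 3 inside the WT range (log2 fold change 1.34, SE 0.36, adjusted p = 0.0324, edgeR). Pcdhb16 was at 9.11, 6.18, 9.72, 10.5 and 7.41 CPM in WT and at 10.5, 10.5, 11.1, 14.1, 16.3 and 17.5 CPM in CgA-KO/hTau, meeting at about 10.5 CPM (log2 fold change 0.64, SE 0.18, adjusted p = 0.0413, edgeR). Pcdhb6 had a log2 fold change of 1.32 (adjusted p = 0.0333), Pcdhb7 of 0.74 (adjusted p = 0.0262) and Pcdhb8 of 0.87 (adjusted p = 0.0469, all edgeR).

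Each of these 5 calls could be ended by leaving out 1 library. Pcdhb2 lost it without WT replicate 2, 3 or 5 or CgA-KO/hTau replicate 4, 5 or 6 (adjusted p up to 0.0966), and Pcdhb6 without WT replicate 1, 2, 3 or 5 or CgA-KO/hTau replicate 5 or 6 (up to 0.0821). Pcdhb7 lost it without WT replicate 2 or 3 (up to 0.0609). Pcdhb16 lost it without WT replicate 1, 2, 3 or 5, hTau replicate 1 or 5, or CgA-KO/hTau replicate 4, 5 or 6 (up to 0.118). Pcdhb8 lost it without any WT library, hTau replicate 2, 4, 5 or 6, or CgA-KO/hTau replicate 4, 5 or 6 (up to 0.107).

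Outside the beta cluster Pcdha8 and Pcdhgb8 rose and Pcdhga10 fell against WT, each from a low level or with a wide spread. Pcdha8, the lowest alpha gene, was at 0.0868, 0.169, 0.250, 0 and 0.290 CPM in WT and at 0.285, 0.578, 0.347, 2.26, 1.94 and 6.55 CPM in CgA-KO/hTau (log2 fold change 3.31, SE 0.90, adjusted p = 0.0348, edgeR). The genotypes overlapped at CgA-KO/hTau replicate 1. The call ended without WT replicate 1, 2, 3 or 5 and without CgA-KO/hTau replicate 6, where the log2 fold change was 2.46, and the highest adjusted p was 0.0762 (edgeR).

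Pcdhgb8 was at 0.868, 0.769, 1.49, 0.342 and 1.1 CPM in WT, at 0.748 to 29.5 CPM (median 0.959) in hTau, and at 30.2, 1.08, 8.56, 6.52, 363 and 46.6 CPM in CgA-KO/hTau. All CgA-KO/hTau libraries but replicate 2 lay above WT, and CgA-KO/hTau replicate 5 held most of the group's summed CPM (log2 fold change 6.23, SE 1.57, adjusted p = 0.0243, edgeR). The log2 fold change went down to 4.21 without CgA-KO/hTau replicate 5, still called, and the call ended without WT replicate 1, 2, 3 or 5 (adjusted p up to 0.0710, edgeR). Pcdhga10 was at 9.63, 8.67, 9.95, 18.9 and 12.1 CPM in WT, at 5.93 to 10.7 CPM (median 8.67) in hTau, and at 5.62, 2.75, 0.859, 2.60, 5.51 and 0 CPM in CgA-KO/hTau, below every other library. It fell by 2.02 on the log2 scale (SE 0.58, adjusted p = 0.0441, edgeR) against WT, and the call ended without any 1 library except CgA-KO/hTau replicates 1, 5 and 6 (adjusted p up to 0.0945, edgeR). Against hTau it had a log2 fold change of -1.57 (adjusted p = 0.0754, edgeR). The largest beta difference that was not called was that of Pcdhb21, with a log2 fold change of 1.71 (adjusted p = 0.392, edgeR).

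WT was compared with hTau, which differ by the transgene. In the fit with genotype alone 1 member was called, Pcdhga7, a gamma gene of the A type, which was higher in WT (1.72% of the 58, against 3.95% of all genes), and no member was lower, against 1.95% of all genes. Without adjustment 10 members had a p under 0.05, and DESeq2 called 1 lower. The shares of all genes at these 2 settings are not given here, so neither count can be read as a result about the members. Striatum markers separated these genotypes, with scores of 0.52 to 2.27 in WT and -1.14 to -1.04 in hTau, and with the score as a covariate 11 members were higher and 1 lower in WT, against 10.5% and 7.31% of all genes. The log2 fold change was positive for 29 of the 58, with medians of -0.13, -0.07 and 0.08 in the alpha, beta and gamma clusters and -0.01 over all genes. Pcdhga7 was at 20.5, 14.2, 18.9, 36.6 and 28.0 CPM in WT and 12.1 to 18.5 CPM (median 14.3) in hTau, with WT replicate 2 inside the hTau range (log2 fold change 0.68, SE 0.19, adjusted p = 0.0444, edgeR). The call ended without WT replicate 4 (log2 fold change 0.47, adjusted p = 0.116) or 5 (0.61, adjusted p = 0.136, edgeR), hTau replicate 1, 2, 4, 5 or 6, or CgA-KO/hTau replicate 1 or 5.

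Pcdha8, Pcdhb2 and Pcdhb3 did not overlap between WT and hTau and were lower in WT, where 9.52% of all genes did not overlap. Pcdhb3 was at 11.1, 9.87, 8.92, 9.92 and 6.49 CPM in WT and at 13.3 to 15.2 CPM (median 14.8) in hTau. Pcdhb2 was at 5.99 to 7.5 CPM (median 6.57) in hTau. Pcdha8 was at 0.384 to 4.57 CPM (median 0.768) in hTau and had the largest fold change of the comparison, a log2 fold change of -2.75 (adjusted p = 0.0758, edgeR). The largest differences in the other clusters were Pcdhb1 at 0.91 (adjusted p = 0.46) and Pcdhgb8 at -2.50 (adjusted p = 0.307, edgeR) on the log2 scale.

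The difference between CgA-KO/hTau and hTau was then computed separately in the libraries with and without Ddx3y, 3 against 3 in each. This split was made since the cluster sums fell apart along these sets. Each fit also held the WT libraries of its set, 3 with and 2 without Ddx3y, which shared in its filter and its estimate of the spread. In the libraries with Ddx3y, 5 of 14 alpha genes, 2 of 22 beta genes and 5 of 22 gamma genes were lower and only 2 genes, Pcdhga5 and Pcdhgc3, were higher (edgeR, 21613 genes tested, of which 14.9% were higher and 16.2% lower). The alpha genes that fell were Pcdha2, Pcdha5, Pcdha11, Pcdha12 and Pcdhac2, and the cluster's median log2 fold change was -0.75. In the libraries without Ddx3y no member was lower, and 7 beta genes and 1 gamma gene were higher (edgeR, 23562 genes tested, of which 0.543% were higher and 0.263% lower). These were Pcdhb2, Pcdhb5, Pcdhb6, Pcdhb7, Pcdhb8, Pcdhb13, Pcdhb16 and Pcdhga5, and the beta median was 0.86, with 21 of 22 log2 fold changes positive. The backgrounds over all genes were unequal, and they depend on the spread within each fit as well as on the size of the differences. The sets were defined after the data had been seen.

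The difference between the sets was computed directly, as the difference from hTau without Ddx3y minus that with Ddx3y. The sets were picked because the sums of these same members fell apart along them. The calls and p-values below therefore describe that split and are no independent test of it. The difference was positive and called for 21 of the 58 members (36.2%, against 6.68% of all genes). It was negative and called for 1 (1.72%, against 4.97%), in edgeR's quasi-likelihood test with adjustment over 23062 genes. The called members were 14 of 22 beta genes, 4 of 14 alpha genes and 3 of 22 gamma genes in the positive direction, and Pcdhgc3 in the negative. The median difference was 0.94 over the beta genes, 1.07 over the alpha genes and 0.35 over the gamma genes on the log2 scale, and -0.03 over all genes.

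Pcdhb2 and Pcdhb3 carried this pattern most clearly. Pcdhb3 was at 6.03, 8.11 and 7.38 CPM in CgA-KO/hTau replicates 1 to 3 and at 27.4, 27 and 27.8 CPM in replicates 4 to 6, below and above the hTau range of 13.3 to 15.2 CPM. Against hTau it fell by 1.0 on the log2 scale in the libraries with Ddx3y, and the difference between the sets was 1.92 (SE 0.21, adjusted p = 0.000314, edgeR). For Pcdhb2 the log2 fold change was -0.62 with and 1.29 without Ddx3y, and the difference 1.95 (SE 0.27, adjusted p = 0.00113, edgeR). Pcdhb5 was at 6.79, 7.95 and 7.64 CPM in CgA-KO/hTau replicates 1 to 3, at 21.1, 22.8 and 24.3 CPM in replicates 4 to 6 and at 9.13 to 12.1 CPM (median 9.87) in hTau, with a difference of 1.73 (adjusted p = 0.00350, edgeR). Pcdhga5 was higher in both sets, with log2 fold changes of 2.09 and 2.57 and a difference between them of 0.51 that was not called (adjusted p = 0.407, edgeR).

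These calls rested on the near-identical libraries counting as separate samples. With hTau replicates 4 to 6 and CgA-KO/hTau replicates 1 and 3 averaged, no member was called, at 3 genes higher and 12 lower of 22409, with the lone averaged hTau sample assumed to vary like the others, while 21 of 22 beta differences stayed positive with a median of 0.87. DESeq2 called 25 members higher and 2 lower, against 4.85% and 4.98% of 39993 genes. Leaving out single libraries gave 10 to 25 higher, against 3.50% to 9.90% of all genes, with 10 without hTau replicate 3, 4 or 5 or without CgA-KO/hTau replicate 1 or 3, 11 without hTau replicate 6 and 13 without CgA-KO/hTau replicate 6.

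Marker levels and the mitochondrial share of counts moved with the same sets of CgA-KO/hTau libraries. On the same kind of score, 7 astrocyte markers scored 0.54 to 0.77 in CgA-KO/hTau replicates 1 to 3 and -0.49 to -0.08 in replicates 4 to 6, and 7 oligodendrocyte markers 0.46 to 0.77 against -0.16 to 0.13. The 6 inhibitory neuron markers scored -0.69 to -0.58 in replicates 1 to 3 and -0.03 to 0.02 in replicates 4 to 6. For 7 excitatory neuron markers the scores were -0.51 to -0.04 and 0.12 to 0.31, and for the 17 cytoplasmic partners of the protocadherins -0.17 to -0.15 and 0.01 to 0.09. Microglia (0.09 to 0.15 against -0.58 to -0.02), endothelial and choroid plexus scores were also higher in replicates 1 to 3, without overlap. Scores of genes for promoter choice and of protocadherins outside the clusters were lower there, without overlap. Only the olfactory and meningeal scores overlapped. The 19 striatum markers scored -0.21 to 1.74 in replicates 1 to 3 and -1.30 to -1.09 in replicates 4 to 6, where hTau scored -1.14 to -1.04. With the striatum score as a covariate, 15 members were higher and 1 lower in CgA-KO/hTau than in hTau, against 4.7% and 3.47% of all genes. The part of these markers, and of the mitochondrial share given above, in the difference between the sets was not tested.

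**Figure D5:**
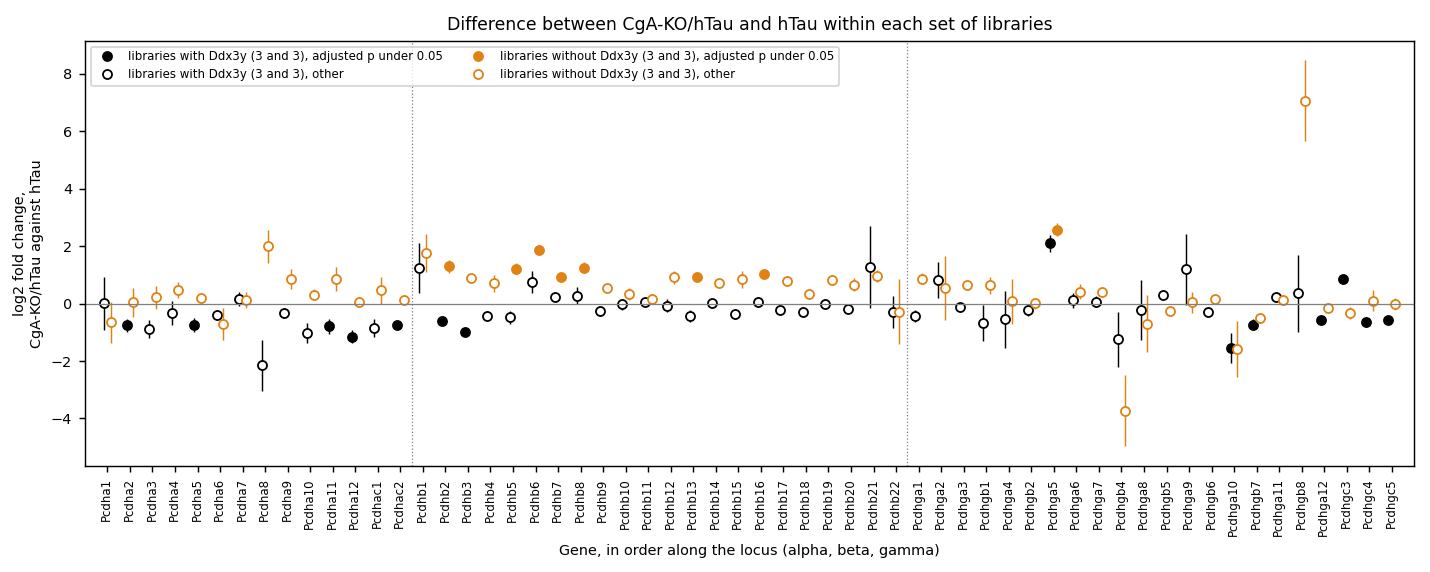
Log2 fold change of CgA-KO/hTau against hTau (vertical axis) for each of the 58 genes in their order along the locus (horizontal axis), with black points for the libraries with Ddx3y and orange points for those without, 3 against 3 each. Filled points have an adjusted p under 0.05 and bars are the SE. The orange points lie above 0 for 21 of 22 beta genes, at a median of 0.86, while the black beta points lie around a median of -0.13.

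None of the 5 C-type genes was called in any comparison over all 17 libraries. The calls in each direction of a comparison took 1.95% to 5.5% of all genes, so the lack of a call among 5 genes is no result about them. Pcdhgc3, the most abundant C-type gene per kb, was at 43.0, 52.3, 57.4, 30.5 and 49.7 CPM in WT, at 48.8 to 64.5 CPM (median 60.1) in hTau, and at 106, 85.0, 105, 55.5, 56.3 and 40.8 CPM in CgA-KO/hTau. CgA-KO/hTau replicates 1 to 3 lay above all other libraries and replicates 4 to 6 among them, so the log2 fold change against WT of 0.68 was not called (adjusted p = 0.0727, edgeR), while the difference between the sets was, at -1.16 (adjusted p = 0.00842, edgeR). Among the members called in that test it was alone in being higher where Ddx3y was present, in the libraries with the higher astrocyte and oligodendrocyte scores.

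Pcdhac2 was the highest alpha gene in all 17 libraries, with 29.3% to 40.9% of the cluster's counts. It was at 63.4, 44.9, 49.0, 50.4 and 49.4 CPM in WT, at 47.8 to 64.2 CPM (median 55.6) in hTau, and at 37.4, 38.1, 34.8, 56.3, 62.1 and 45.5 CPM in CgA-KO/hTau, with the first 3 below every other library. Pcdhgc5 was at 75.5, 61.6, 65.5, 56.5 and 68.0 CPM in WT, at 52.7 to 86.1 CPM (median 62.4) in hTau, and at 42.9, 44.3, 41.7, 67.2, 71.4 and 56.2 CPM in CgA-KO/hTau, with the same 3 libraries lowest. Both genes thus ran opposite to Pcdhgc3 in these libraries.

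The other C-type genes were lower. Pcdhgc4 was at 12.6, 11.7, 11.5, 5.93 and 13.2 CPM in WT, at 9.22 to 13.5 CPM (median 11.1) in hTau, and at 5.97, 6.63, 8.58, 17.1, 12.7 and 7.48 CPM in CgA-KO/hTau. Pcdhac1 was at 10.3, 4.87, 4.19, 15.6 and 4.97 CPM in WT, at 5.30 to 6.80 CPM (median 6.01) in hTau, and at 2.80, 3.19, 3.99, 6.21, 4.78 and 14.0 CPM in CgA-KO/hTau. The genotypes overlapped for both.

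Genes for promoter choice and for cytoplasmic partners of the protocadherins were set beside all genes. Of all genes tested, 3.95% were higher and 1.95% lower in WT against hTau, and 5.5% and 4.22% in CgA-KO/hTau against hTau. In CgA-KO/hTau against WT, 3.56% were higher and 2.89% lower. Of 26 genes for promoter choice and chromatin (CTCF, cohesin, DNA methylation and histone methylation), none was called between WT and hTau, 1 was higher in CgA-KO/hTau than in hTau and 1 lower than in WT. These were Tet2, an enzyme that oxidises methylated cytosine (log2 fold change 0.42, adjusted p = 0.0154, edgeR), and Ehmt1, a histone methyltransferase, which fell by 0.32 (adjusted p = 0.0401, edgeR). The median log2 fold changes of the list were 0.08, 0.02 and -0.05 for WT against hTau, CgA-KO/hTau against hTau and CgA-KO/hTau against WT. Of the 17 cytoplasmic partners, only the kinase gene Ptk2b was called, which fell by 0.51 in CgA-KO/hTau against WT (adjusted p = 0.0355, edgeR). In lists this short, the numbers of calls are no result about the lists.

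Of 11 non-clustered protocadherins, adhesion genes elsewhere in the genome, Pcdh17 was higher in WT than in hTau (0.59), where 3.95% of all genes were. Pcdh20 was lower in CgA-KO/hTau than in hTau (-0.59), where 4.22% of all genes were. Against WT, Pcdh8 (-1.12), Pcdh17 (-0.59) and Pcdh20 (-0.76) were lower in CgA-KO/hTau, all as log2 fold changes called by edgeR. These are 3 of the 11, where 2.89% of all genes were lower. The list medians of 0.18, -0.29 and -0.35 stand for WT against hTau, CgA-KO/hTau against hTau and CgA-KO/hTau against WT.

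No gene around the clusters was called between CgA-KO/hTau and hTau, where 5.5% of all genes were higher and 4.22% lower. Of 35 tested genes that lie within 300 kb of the clusters or between their members, the 16 before the alpha cluster had a median log2 fold change of -0.08, the 14 inside the clusters 0.40 and the 5 after the gamma cluster 0.05. Those inside are spread over all 3 clusters, whose members had medians of -0.27 (alpha), 0.37 (beta) and -0.03 (gamma). Many of them averaged under 1 CPM in every genotype, such as Slc25a2 at 0.265 CPM in hTau and 0.0716 CPM in CgA-KO/hTau. Taf7, a single gene between the beta and gamma clusters that shares no bases with members, was at 0.28 (adjusted p = 0.318, edgeR). Some of those inside share bases with members, and their counts cannot be told apart from them without strand. Between WT and hTau, Fchsd1 was higher (1.06, adjusted p = 0.0206) and Rell2 lower (-0.83, adjusted p = 0.00417, edgeR) in WT. Against WT, Hars (-0.46, adjusted p = 0.0426) and Fchsd1 (-1.0, adjusted p = 0.0287, edgeR) were lower in CgA-KO/hTau.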

How the data were processed

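RNA from prefrontal cortex was made into mRNA libraries and sequenced as paired ends. The authors used Trimmomatic for trimming, STAR and mm10 for alignment, and StringTie with its prepDE script to obtain the deposited values, which are raw counts by gene. StringTie coverage becomes counts through an assumed read length, here about 3 counts per fragment, so a count of 0 allows 9 counts (counting error only). The annotation release and strand setting were not given in the sources used here. Libraries were grouped as labelled. CPM used edgeR 4.0.16 TMM sizes (R 4.3.3). The 23062 genes passing filterByExpr, all 58 members included, were fitted in 1 edgeR quasi-likelihood model of 17 libraries with 1 mean per genotype. Coordinates are from GENCODE M21, matched by identifier. Scripts were tested on simulated data. The members and lists were chosen with earlier results of these data known. Members were named where called, C-type, among the 3 highest per kb of a cluster or largest in fold change; values of others were picked after being seen. The alternatives were DESeq2 1.42.0, its size factors, other filters, 2-genotype fits, a robust fit, limma 3.58.1 voom, a replicate block, Ddx3y or striatum covariates, counts divided by 3, averaged near-identical libraries and each library left out. Splits by Ddx3y were added after seeing the data. The 3 clusters' sums got no test.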

Additional observations from a re-analysis of the deposited data

Results flagged for a closer look

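Of 90 sets of libraries of one genotype examined for the named genes, 14 had a highest or lowest library far from the others by Dixon's criterion. Some of these genes were named after their outlying libraries had been seen, so this count cannot be set against a chance rate. Among the gamma genes, Pcdhgb8 was at 29.5 CPM in hTau replicate 3 (others 0.748 to 1.23) and at 363 CPM in CgA-KO/hTau replicate 5 (1.08 to 46.6). Pcdhga9 was at 319 CPM in WT replicate 3 (23.5 to 84.5) and at 244 CPM in CgA-KO/hTau replicate 3 (13.2 to 34.8). In hTau replicate 6, Pcdhga2 was at 385 CPM (14.8 to 54.6) and Pcdhgb4 at 13.5 CPM (332 to 383). Pcdhga12 was at 33.4 CPM in hTau replicate 3 (26.8 to 28.2), and the C-type gene Pcdhgc4 was at 5.93 CPM in WT replicate 4 (11.5 to 13.2).

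Among the alpha genes, Pcdha8 was at 4.57 CPM in hTau replicate 1 (0.384 to 1.11) and at 6.55 CPM in CgA-KO/hTau replicate 6 (0.285 to 2.26). Pcdhac1 was at 14.0 CPM in CgA-KO/hTau replicate 6 (2.80 to 6.21), Pcdha12 at 19.6 CPM in hTau replicate 2 (12.5 to 14.9) and Pcdha11 at 37.4 CPM in WT replicate 4 (5.15 to 12.0). The only beta gene was Pcdhb20, at 25.7 CPM in WT replicate 4 (11.5 to 13.7). WT replicate 4 was the shallowest library.

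The change from hTau to CgA-KO/hTau differed between the libraries without and with Ddx3y for 22 members by the edgeR test of the difference itself. These sets were picked after the sums of the same members had been seen, so the calls are descriptive. On the log2 scale the beta genes' differences were 1.95 for Pcdhb2, 1.92 for Pcdhb3, 1.73 for Pcdhb5, 1.37 for Pcdhb13, 1.24 for Pcdhb15, 1.16 for Pcdhb4, 1.05 for Pcdhb17, 1.01 for Pcdhb16, 0.88 for Pcdhb19, 0.88 for Pcdhb20, 0.85 for Pcdhb9, 0.75 for Pcdhb7, 0.74 for Pcdhb14 and 0.65 for Pcdhb18. The alpha genes' differences were 4.18 for Pcdha8, 1.23 for Pcdha12, 0.98 for Pcdha5 and 0.92 for Pcdhac2. The gamma genes' differences were 6.74 for Pcdhgb8, 1.32 for Pcdhga1, 0.80 for Pcdhga3 and -1.16 for Pcdhgc3. None of the 22 was called when the near-identical libraries were averaged.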

How the results depend on the processing

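The 17 called differences of the 12 called genes kept their sign in every alternative, while differences that were not called over all libraries, such as those of Pcdhb2 and Pcdhb3 against hTau, did not. Called members (higher, then lower) were 1 and 0 for WT against hTau, 4 and 2 for CgA-KO/hTau against hTau, and 8 and 2 for CgA-KO/hTau against WT. In that order of comparisons, the counts that moved by over 1.5 times were as follows. DESeq2 gave 1 lower in the first and 8 higher in the second. No filter on low counts gave 0 higher, 2 higher, and 4 higher and 1 lower. At least 10 counts in every library gave 1 lower in the third. Fits of only the 2 genotypes gave 0 higher and 3 lower in the first, and 2 higher and 1 lower in the third. limma voom gave 3 lower, 4 lower and 5 higher. The striatum covariate gave 11 higher and 1 lower, 15 higher and 1 lower, and 2 higher and 9 lower. Averaging near-identical libraries gave 0 higher, 1 higher and 0 lower, and 3 higher and 1 lower, and for the difference between library sets, which had 21 higher and 1 lower, 0 of each. DESeq2 gave 2 lower there. The share of all genes called also changes with the fit. For CgA-KO/hTau against hTau it was 0.543% higher in the libraries without Ddx3y alone and 14.9% higher in those with Ddx3y alone. The counts here and below therefore show how the calls depend on the fit and are no result about the members.

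With the replicate number as a block, 0 members were higher in the first, 2 higher and 1 lower in the second, and 1 higher and 1 lower in the third. The numbers did not pair the libraries, as 2 of 16 pairs with the same number had deviations correlated above 0.1 (r from -0.23 to 0.44, median -0.04). Chosen after seeing the data, the libraries with Ddx3y alone gave 0 higher and 1 lower, 2 higher and 12 lower, and 3 higher and 7 lower, and those without Ddx3y alone gave 2 higher and 2 lower in the first and 8 higher and 0 lower in the second.

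Leaving out each library in turn gave 0 to 2 higher and 0 to 1 lower in the first, 2 to 6 higher and 1 to 3 lower in the second, 1 to 10 higher and 1 to 3 lower in the third, and 10 to 25 higher and 1 to 2 lower for the difference between sets.

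For CgA-KO/hTau against hTau, the log2 ratio of the alpha sums was -0.19 over all libraries, -0.72 with Ddx3y and 0.27 without. That of the beta sums was 0.40 over all libraries and -0.17 with Ddx3y. Without Pcdhgb4 the gamma ratio went from -0.16 to 0.38, and for WT against hTau from 0.01 to 0.35. Low members such as Pcdhb1 and Pcdha8 are limited by depth, since a count of 0 allows up to 1.03 CPM in the shallowest library. The causes of these changes were not tested.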
